A study of Mus musculus with 8 samples.

Results

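The imprinted gene network is a set of genes that are expressed from 1 parental allele and that many growing and stem cell populations regulate together. It was taken here as 10 genes fixed by name, H19, Igf2, Igf2r, Meg3, Rian, Mirg, Dlk1, Peg3, Plagl1 and Grb10, among 36047 genes with a listed transcript. Estimated counts for 6 of the 10 were analysed, Igf2, Igf2r, Dlk1, Peg3, Plagl1 and Grb10, and these 6 passed the expression filter among 17997 genes tested. The long noncoding members H19, Meg3, Rian and Mirg were not analysed here, since none of their 7, 11, 20 and 12 annotated transcripts had an estimate in the tables used.

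Muscle stem cells (MuSCs) are the resident progenitors of skeletal muscle, and the study asked how their transcriptome changes when dietary vitamin A (VA), the source of retinoic acid, is withdrawn. Male mice aged 5 to 6 months that carried Pax7 CreERT2 and Rosa26 nTnG received either a VA-free diet for 8 weeks (3 mice) or normal mouse chow (control, 2 mice). Both groups carried both alleles and received tamoxifen, which labels Pax7-expressing cells with nuclear GFP, and DAPI-negative GFP-positive cells were sorted from quadriceps and gastrocnemius muscles. RNA of a mouse was split into technical replicates A and B, of which this set holds libraries 1B, 2A, 3A and 3B for the VA-free mice and 1A, 1B, 2A and 2B for the control mice. The Cre driver serves only to mark the cells, and the custom VA-free diet was set against standard chow, so loss of VA and any other difference between the 2 feeds cannot be told apart. Sequencing reads were not separated by parental allele, so the levels below are sums over both alleles.

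Genomic imprinting leaves a methylation mark on 1 parental copy of a control region, and that mark sets which copy of each neighboring gene is transcribed. Igf2, Dlk1, Peg3 and Plagl1 are mainly transcribed from the paternal copy, whereas H19, Meg3, Rian, Mirg and Igf2r are mainly transcribed from the maternal copy, as is Grb10 in most tissues. In muscle the network is known for its ties to growth and to stem cell quiescence, through the growth factor IGF2, its clearance receptor IGF2R, the signaling adaptor GRB10, and the zinc finger proteins PEG3 and PLAGL1.

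Total estimated counts lay between 45021285 and 88650428 in the VA-free libraries and between 44831232 and 53029345 in the control libraries. Libraries 2A and 2B of control mouse 2 stood apart from each other (Spearman rho across genes 0.937, against 0.976 for control mouse 1 and 0.990 for VA-free mouse 3), and the members are given below without each of them. Between diets, 11 of 14 MuSC markers were higher in VA-free samples and none was lower. Of other lists, 9 of 9 endothelial, 7 of 10 fibro-adipogenic, 5 of 6 tenocyte and 7 of 7 Schwann cell markers were lower. So were 4 of 8 pericyte and smooth muscle, 3 of 8 macrophage and 4 of 8 myofiber markers. In the fibro-adipogenic list 1 marker was higher, as was 1 in the pericyte and smooth muscle list. Beside these counts, 18.9% of all genes tested were called higher and 22.5% lower. Pax7 itself, the gene that defines MuSCs, was at 132 CPM in VA-free and 78.1 CPM in control mice. The summed endothelial level was 217 to 282 CPM (counts scaled to the normalised size of each library, the unit of all levels below unless TPM is named) in VA-free libraries and 1181 to 2443 CPM in control libraries, and no marker of these lists was at 0 throughout the VA-free libraries. The summed fibro-adipogenic level was instead higher, at 11580 to 12650 CPM in VA-free and 3953 to 9633 CPM in control libraries. In such bulk samples fewer cells of a type and less RNA per cell cannot be told apart.

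Of the 6 measured members, 3 rose on the VA-free diet, 2 fell and 1 did not pass the test. Across all genes tested 41.4% passed an adjusted p of 0.05, 18.9% as higher and 22.5% as lower, so a count of 5 in 6 stands against a diet difference that touched much of the transcriptome. Igf2r rose most, 4.02-fold, and Peg3 and Plagl1 rose 2.51-fold and 2.53-fold. Igf2 was 1.53-fold and Dlk1 1.91-fold lower, and Grb10 was higher without passing the threshold. The median log2 fold change of the 6 was 0.96, beside 0.003 over all genes tested.

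**Figure D1:**
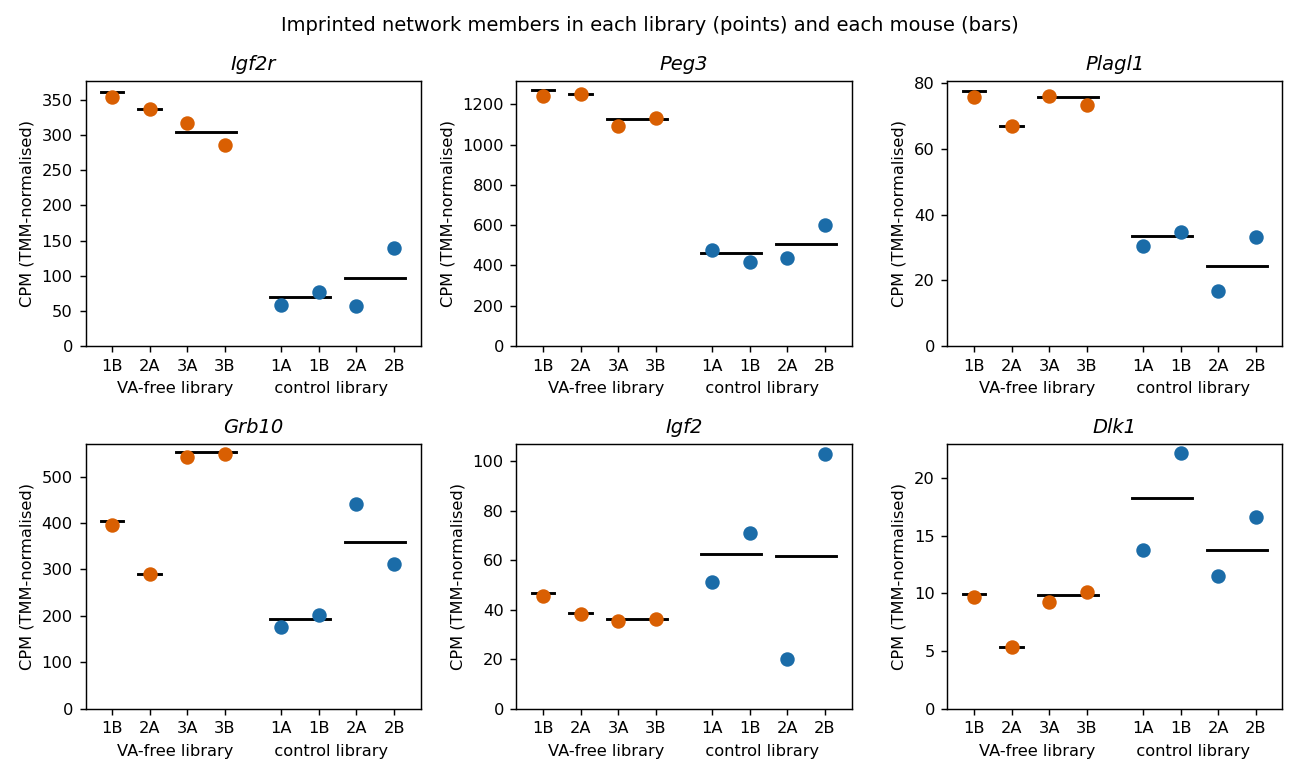
Level of each measured member as TMM-normalised CPM (y axes, linear from 0) in the 4 VA-free (orange) and 4 control (blue) libraries, with a black bar at the level of each mouse. Igf2r, Peg3 and Plagl1 are higher in every VA-free library than in any control library, Dlk1 is lower, and Igf2 and Grb10 overlap because of control library 2A and control mouse 2.

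Every VA-free library lay above every control library for Igf2r, Peg3 and Plagl1, as was so for 19.9% of all genes tested. Dlk1 lay lower in every VA-free library, as did 21.4% of genes. The groups overlapped for Igf2 and Grb10 at the level of libraries.

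Igf2r (ENSMUSG00000023830, chromosome 17, 12682406 to 12769664, minus strand, GRCm38) encodes the cation-independent mannose 6-phosphate receptor, which carries IGF2 and acid hydrolases to lysosomes. VA-free libraries 1B, 2A, 3A and 3B held 354, 337, 317 and 286 CPM. Control libraries 1A, 1B, 2A and 2B held 58.4, 77.0, 56.9 and 139 CPM. The highest control library was therefore 2B, and it stayed well under the lowest VA-free library. Averages per mouse were 335 ± 28.6 CPM (SD, n = 3) against 83.2 ± 19.5 CPM (SD, n = 2), or 2.01 ± 0.18 on the log2 scale (SE, adjusted p = 0.000418). Igf2r was at 1.68 without control library 2A and at 2.38 without 2B. Almost all of it fell on the full-length transcript Igf2r-201 of 8887 bases, which took at least 99.6% of the gene's estimated counts in each library.

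The promoter window of Igf2r is shown because this member moved most. All windows span 250 bases before to 50 bases after a RefSeq start on GRCm38.p6 and are written in the direction of the gene, with capitals at matches to the half-site of a retinoic acid response element (AGGTCA), the Plagl1 motif (GGGGCCCC) or an E-box (CACGTG), on either strand. The Igf2r window, chr17:12769657-12769956 on the minus strand, held 1 half-site and 2 E-boxes, and the half-site overlaps the second E-box.
Igf2r: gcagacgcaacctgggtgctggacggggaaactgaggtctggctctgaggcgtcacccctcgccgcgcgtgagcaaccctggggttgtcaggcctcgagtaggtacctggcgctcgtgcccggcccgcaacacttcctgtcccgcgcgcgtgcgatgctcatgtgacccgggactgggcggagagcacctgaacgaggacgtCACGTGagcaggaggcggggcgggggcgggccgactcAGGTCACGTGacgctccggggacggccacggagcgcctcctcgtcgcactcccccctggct
An AGGTCA match was found in 16.3% of 32851 windows of the same length and CACGTG in 7.15%. The window also held 34 CG dinucleotides, and 92.3% of windows held fewer.

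Peg3 (ENSMUSG00000002265, chromosome 7, 6703892 to 6730431, minus strand), a zinc finger protein also known as PW1 and a mark of several adult stem cells, was the most abundant member of VA-free MuSCs. On the VA-free diet the libraries (in the order 1B, 2A, 3A, 3B, which is kept from here on) held 1243, 1249, 1090 and 1130 CPM. The control libraries (1A, 1B, 2A, 2B) held 477, 415, 436 and 599.5 CPM. Both groups were tight, and no value of one came near the other. Peg3 averaged 1216 ± 79.6 CPM (SD, n = 3) in VA-free and 484 ± 28.9 CPM (SD, n = 2) in control mice, which is 1.33 ± 0.13 higher on the log2 scale (SE, adjusted p = 0.000482). Leaving out control library 2A or 2B gave 1.19 or 1.41.

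Peg3 shares a 2-way promoter with Usp29, a ubiquitin-specific protease gene that is transcribed in the other direction. The window of Peg3, chr7:6730370-6730669 on the minus strand, overlaps that of Usp29 by 263 bases, and the printed sequence is shown because Peg3 passed the test and Usp29 did not. It held 1 match to GGGGCCCC, a motif found in 1.08% of windows, and that match also lies in the Usp29 window.
Peg3: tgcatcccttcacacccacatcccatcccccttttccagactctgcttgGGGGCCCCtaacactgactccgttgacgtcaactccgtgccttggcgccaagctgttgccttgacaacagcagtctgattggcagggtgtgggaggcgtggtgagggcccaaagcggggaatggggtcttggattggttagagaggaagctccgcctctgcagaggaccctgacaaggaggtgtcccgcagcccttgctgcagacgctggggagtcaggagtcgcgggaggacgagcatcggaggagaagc
Usp29 was far less abundant, at 2.47 ± 0.455 CPM (SD, n = 3) against 1.89 ± 0.362 CPM (SD, n = 2), and did not pass the test (log2 fold change 0.39 ± 0.33, SE, adjusted p = 0.401). Whether the changes of Peg3 and Usp29 differ was not tested.

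Plagl1 (ENSMUSG00000019817, chromosome 10, 13060504 to 13131694, plus strand) encodes ZAC1, a zinc finger transcription factor known to act on other imprinted genes. The VA-free libraries gave 75.9, 66.9, 76.2 and 73.5 CPM. The control libraries gave 30.4, 34.7, 16.7 and 33.1 CPM. Library 2A was the lowest, and its own pair 2B sat with the libraries of control mouse 1. Plagl1 averaged 73.5 ± 5.65 CPM in the 3 VA-free mice and 29.0 ± 6.34 CPM in the 2 control mice (SD), and rose by 1.34 ± 0.17 on the log2 scale (SE, adjusted p = 0.00114). The value was 1.14 without control library 2A and 1.53 without 2B.

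The Plagl1 window, chr10:13090582-13090881 on the plus strand, holds the start of the main transcript Plagl1-202 and is shown as that of the third member that rose. It held 1 E-box and no match to the other motifs searched.
Plagl1: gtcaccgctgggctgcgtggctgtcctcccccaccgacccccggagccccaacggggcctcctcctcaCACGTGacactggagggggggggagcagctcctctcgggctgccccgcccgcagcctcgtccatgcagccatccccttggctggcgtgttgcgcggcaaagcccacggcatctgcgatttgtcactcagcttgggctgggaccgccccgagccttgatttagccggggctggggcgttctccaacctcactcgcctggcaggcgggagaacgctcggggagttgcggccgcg

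Igf2 (ENSMUSG00000048583, chromosome 7, 142650766 to 142666816, minus strand) encodes insulin-like growth factor 2, a growth factor that myogenic cells themselves release. The VA-free libraries held 45.7, 38.4, 35.6 and 36.2 CPM. Control libraries 1A and 1B held 51.3 and 71.1 CPM, whereas 2A held 20.0 and 2B 103 CPM. The lowest and the highest of the 8 libraries were thus the technical pair of control mouse 2, which differed 5.15-fold. Summed per mouse, Igf2 was 40.5 ± 5.47 CPM (SD, n = 3) against 62.1 ± 0.661 CPM (SD, n = 2) and fell by 0.62 ± 0.14 on the log2 scale (SE, adjusted p = 0.0118). The small spread between control mice came from adding 2A to 2B. Its log2 fold change became -0.05 when control library 2B was left out (adjusted p = 0.951) and -1.03 when 2A was left out (adjusted p = 0.00907). A single library per mouse gave 0.17 (adjusted p = 0.787), and removing the length trend described further on gave 0.05 (adjusted p = 0.812), so the direction of Igf2 is not settled by these libraries.

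The largest share of Igf2 counts in each library went to transcript Igf2-203, a model of 650 bases that begins at the most upstream start. It took 54.5% to 64.3% of the gene's estimated counts in VA-free and 35.2% to 64.3% in control libraries. Models of Igf2 share sequence, so these shares do not show which start was used. Control library 2A alone gave 21.1% to Igf2-208, a processed transcript at the 3′ end that took at most 1.53% elsewhere. The window at the start of Igf2-203, chr7:142666767-142667066 on the minus strand, is shown because that model took the largest share of the counts. It held 1 half-site, on the opposite strand, and only 2 CG dinucleotides, against a median of 7 over all windows.
Igf2: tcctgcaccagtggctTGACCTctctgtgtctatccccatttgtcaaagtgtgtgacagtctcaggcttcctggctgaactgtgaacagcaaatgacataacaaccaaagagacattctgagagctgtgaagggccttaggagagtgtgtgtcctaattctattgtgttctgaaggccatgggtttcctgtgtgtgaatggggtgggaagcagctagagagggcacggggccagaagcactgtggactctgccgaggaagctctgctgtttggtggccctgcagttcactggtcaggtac

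The transcripts of the growth factor and of its clearance receptor were set against each other in each library. On the deposited TPM values, which are scaled by transcript length and so allow genes to be compared, the ratio of Igf2 to Igf2r was 1.21, 1.13, 1.07 and 1.32 in the VA-free libraries. The control libraries had ratios of 8.76, 8.48, 3.11 and 8.33. The groups did not overlap, even with control library 2A, which was the lowest control. Igf2r TPM alone separated the groups as well, at 61.5 to 81.9 in VA-free and 7.91 to 23.3 in control libraries. Per mouse the ratio averaged 1.18 ± 0.0389 (SD, n = 3) and 7.80 ± 1.12 (SD, n = 2), and since 1 ratio cannot be fitted across genes it was given without a test. The ratio sets a short gene against a long one, and with the length trend removed the log2 fold changes of Igf2r and Igf2 lay at 1.39 and 0.05, closer together than the 2.01 and -0.62 of the main test. TPM of Igf2 also rest on how kallisto divided its counts between models. The 650-base Igf2-203 took 35.2% to 64.3% of the gene's counts but 58.7% to 88.7% of its TPM over the libraries. How far the ratio depends on that split was not tested.

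**Figure D2:**
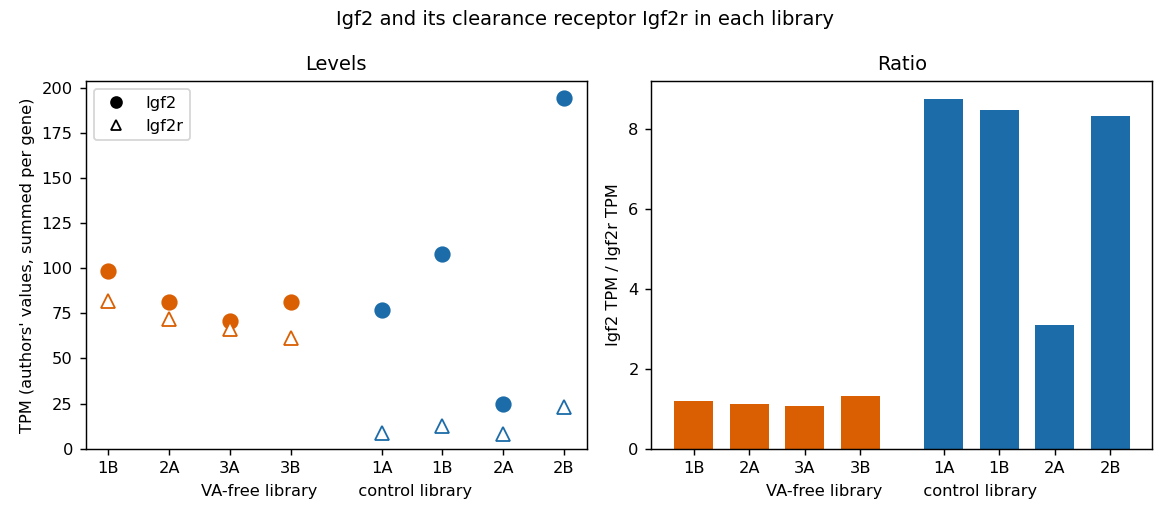
TPM of Igf2 (filled circles) and Igf2r (open triangles) in each library at left, and the ratio of Igf2 to Igf2r TPM in each library at right, with VA-free in orange and control in blue. The ratio lies between 1.07 and 1.32 in the VA-free libraries and between 3.11 and 8.76 in the control libraries.

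Grb10 (ENSMUSG00000020176, chromosome 11, 11930508 to 12038683, minus strand) encodes an adaptor that binds activated insulin and IGF1 receptors and dampens their signal. The VA-free libraries held 395, 289.9, 542 and 548 CPM, and the control libraries held 175, 202, 440.0 and 312 CPM. Mice of one diet differed as much as the diets did, with VA-free mouse 3 high and control mouse 1 low. Grb10 averaged 416 ± 131 CPM on the VA-free diet (SD, n = 3) and 277 ± 117 CPM on chow (SD, n = 2), and the log2 fold change of 0.59 ± 0.34 (SE) did not pass the test (adjusted p = 0.211). Leaving out control mouse 1 gave 0.21 (adjusted p = 0.669), and leaving out control mouse 2 gave 1.09 (adjusted p = 0.0553). Of its libraries, dropping 2A gave 0.71 and dropping 2B gave 0.37.

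A short transcript model of Grb10 took a smaller share in the VA-free than in the control libraries. The short model Grb10-207 of 430 bases took 0 to 0.642% of the gene's estimated counts in VA-free and 1.21% to 4.24% in control libraries. Expressed as shares of TPM, which give short models more weight, these were at most 6.70% and at least 11.7%. The 2 long coding forms start apart, and Grb10-203 from the downstream start took 9.50% to 12.99% in VA-free and 7.40% to 15.9% in control libraries, which overlapped. Shares without overlap were also seen in other members. Igf2-205 took 7.29% to 8.31% of the counts of Igf2 in VA-free and 0.651% to 3.52% in control libraries. Igf2-206 took 0.778% to 1.49% in VA-free and 2.10% to 5.14% in control libraries. Igf2r-203 took 0.160% to 0.36% of the counts of Igf2r in VA-free and 0 to 0.0295% in control libraries. How many transcripts of all genes separate in this way was not counted. These shares are estimates that kallisto divides between models sharing sequence, and they were not tested.

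Dlk1 (ENSMUSG00000040856, chromosome 12, 109452823 to 109463336, plus strand) encodes a transmembrane protein with EGF-like repeats that can restrain Notch signaling and is known in developing and regenerating muscle. It was at 9.70, 5.32, 9.27 and 10.1 CPM in the VA-free libraries. Those of the control diet held 13.8, 22.1, 11.6 and 16.7 CPM. VA-free 3B and control 2A came close to each other, although the groups did not overlap. Dlk1 fell by 0.94 ± 0.30 on the log2 scale (SE, adjusted p = 0.0436), from 16.0 ± 3.19 CPM (SD, n = 2) in control to 8.37 ± 2.63 CPM (SD, n = 3) in VA-free mice. Dlk1 no longer passed in 10 of 24 alternatives, which included leaving out VA-free mouse 1, 2 or 3 (-1.07, -0.70 and -1.07), control mouse 1 (-0.72), control library 1B (-0.72) and control library 2B (-0.85). It passed without control library 2A (-1.06).

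Ordered by TPM per mouse, the levels in VA-free mice ran from Peg3 (338 ± 31.9, SD, n = 3) through Grb10 (193 ± 53.6), Igf2 (85.3 ± 11.9), Igf2r (72.5 ± 8.99) and Plagl1 (46.7 ± 3.72) to Dlk1 (11.3 ± 3.36). In control mice Grb10 (119 ± 40.6, SD, n = 2), Igf2 (101 ± 12.03) and Peg3 (98.2 ± 7.88) led and did not differ beyond their spread, and Dlk1 (16.8 ± 2.12), Igf2r (13.2 ± 3.44) and Plagl1 (11.5 ± 2.03) followed. Igf2 and Igf2r were neighbors within their spread in VA-free mice, whereas in control mice Igf2 stood among the leading members and Igf2r among the scarce ones. The place of Igf2 in this order rests on how kallisto divided its counts between short and long models.

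Transcript length moved with the diet difference over the whole table, and the members lie at both ends of it. Across 17997 genes the log2 fold change and the mean effective length had a Spearman rho of 0.371, given as a description since genes share libraries. With genes split by length into 5 classes of equal size, the median log2 fold change was -0.68 in the shortest class, where 41.6% of genes fell and 2.31% rose. It was 0.56 in the longest class, where 39.1% rose and 9.83% fell. Igf2r (effective length 8464 bases) and Peg3 (6613 bases) belong to the longest class, Plagl1 (3316 bases) and Grb10 (3471 bases) to the fourth, where 30.5% of genes rose, Dlk1 (1314 bases) to the second, where 31.4% fell, and Igf2 (867 bases) to the shortest. Each member that rose was therefore long and each that fell was short, and the part of length in these differences was not tested beyond the following fit. With the length trend removed Igf2r, Peg3 and Plagl1 still rose (log2 fold change 1.39, 0.71 and 0.94, highest adjusted p of the 3 over all alternatives 0.0252), whereas Dlk1 (-0.59, adjusted p = 0.185) and Igf2 no longer passed.

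**Figure D3:**
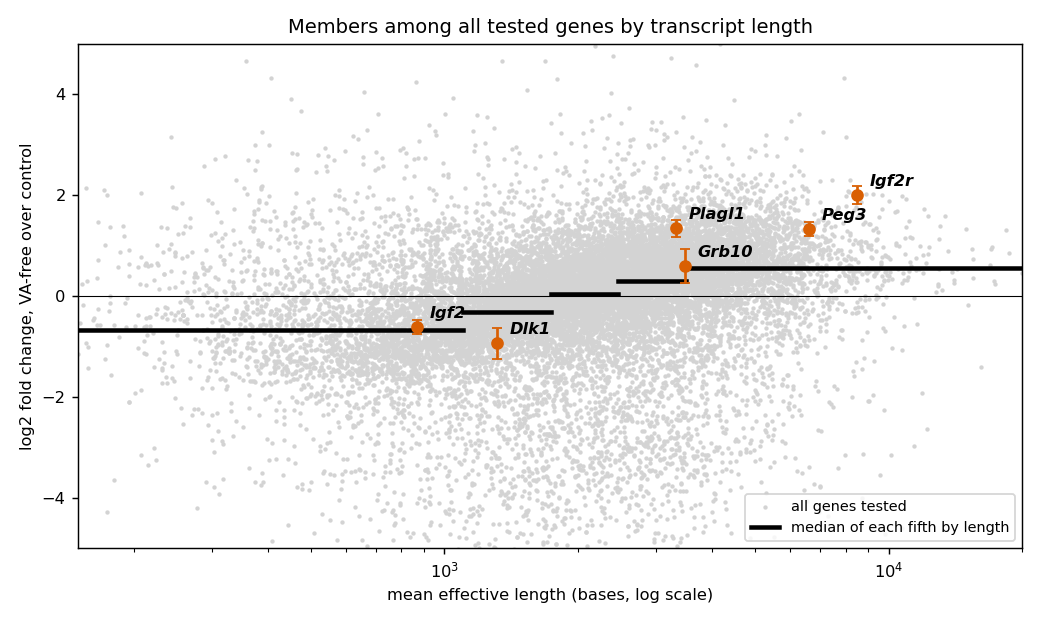
Log2 fold change of VA-free over control (y axis, drawn from -5 to 5) against mean effective length (x axis, log scale) for all genes tested (grey), with the median of each of 5 length classes (black lines) and the 6 members with their SE (orange). The medians climb from -0.68 to 0.56, and Igf2r, Peg3 and Plagl1 lie above the median of their class.

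**Figure D4:**
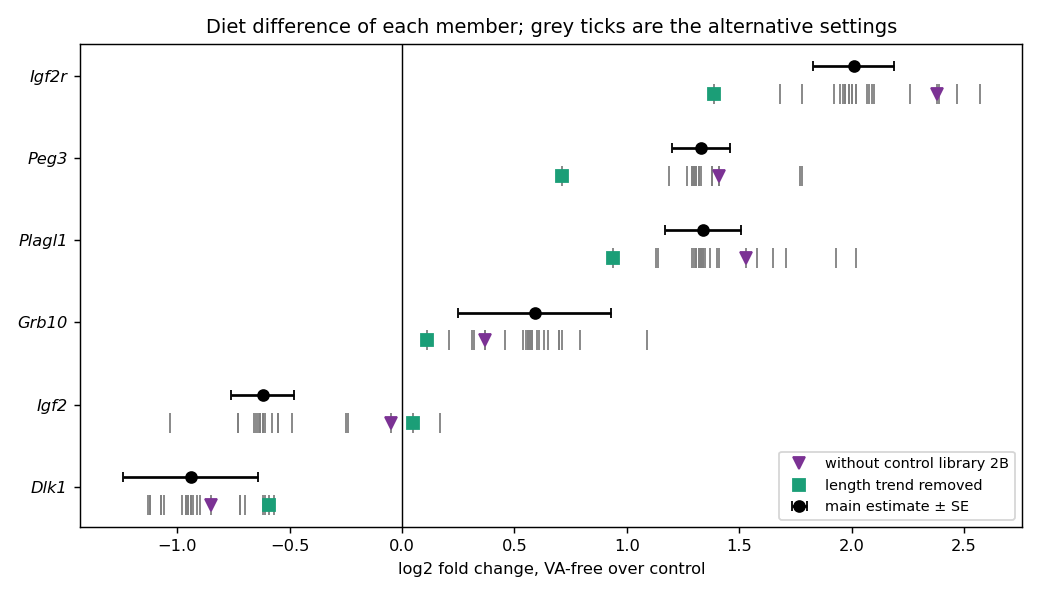
Log2 fold change of each member with its SE (black) and its value under each of 24 alternative settings (grey ticks), with the fits without control library 2B (purple) and with the length trend removed (green) marked. Igf2r, Peg3 and Plagl1 stay right of 0 in all of them, Grb10 stays right of 0 without passing the test, Dlk1 stays left, and Igf2 reaches 0.17.

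Genes beside the members were compared next, since imprinted genes lie in clusters under shared control regions. Near Peg3, the imprinted zinc finger gene Zim1 rose (log2 fold change 1.77 ± 0.22, SE, adjusted p = 0.00106) from 16.4 to 55.9 CPM, and it did so under all 24 alternatives. Zfp787, a further zinc finger gene there, rose by 0.68 ± 0.17 (adjusted p = 0.0171), a call lost under 10 of 24 alternatives. Beside 18.9% of all genes that rose and 22.5% that fell, 2 of 6 tested neighbors in the Dlk1 and Meg3 region rose and none fell. These were Begain (1.19 ± 0.19, adjusted p = 0.00311), which encodes a synaptic scaffold protein, and Wdr25 (1.05 ± 0.23, adjusted p = 0.0109), and the second lost its call under 2 of 24 alternatives, of which 1 left out VA-free mouse 3 (0.97). Rtl1 and Dio3, the other protein-coding imprinted genes of that cluster, were scarce (means of 1.01 and 1.05 CPM in VA-free mice) and did not pass the test, with log2 fold changes of 1.42 ± 0.67 and 0.76 ± 0.58. Wars and Ppp2r5c gave 0.08 and -0.15.

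In the H19 and Igf2 region 3 of 4 tested genes fell, beside 22.5% of all genes. All 4 have effective lengths of 661 to 1022 bases and belong to the shortest class, where 41.6% of genes fell. Mrpl23, a mitochondrial ribosomal protein gene, fell by 1.20 ± 0.16 (adjusted p = 0.00143) and Tnni2, the fast skeletal troponin I gene, fell by 1.53 ± 0.25 (adjusted p = 0.00311), both on the log2 scale. Both calls were lost with the length trend removed (-0.48 and -0.79). Tnni2 was low for a myofiber gene (7.07 CPM in VA-free and 20.4 CPM in control mice), and 4 of 8 myofiber markers were also lower in VA-free mice and none was higher, with sums of 232 to 291 CPM and 353 to 418 CPM, whose part in the Tnni2 difference was not tested. Ascl2, a helix-loop-helix factor, was at 0.0420 and 0.253 CPM and lost its call under 16 of 20 alternatives. Lsp1 gave 0.06 ± 0.32.

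Beside Igf2r, the organic cation transporter gene Slc22a2 was called lower (adjusted p = 0.0302) at only 0.0356 against 0.566 CPM, a call lost under 7 of 23 alternatives. Slc22a3 and Mas1 (log2 fold changes 0.26 and 0.15) did not pass. Beside Plagl1, Sf3b5, a splicing factor gene, fell by 0.96 ± 0.12 (adjusted p = 0.00127), and Phactr2 and Ltv1 gave -0.08 and 0.21. Next to Grb10, Cobl, an actin nucleator gene, rose by 1.02 ± 0.11 (adjusted p = 0.000746), and Ddc, Fignl1 (-0.62 and -0.06) and Ikzf1, at under 1 CPM, did not pass.

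**Figure D5:**
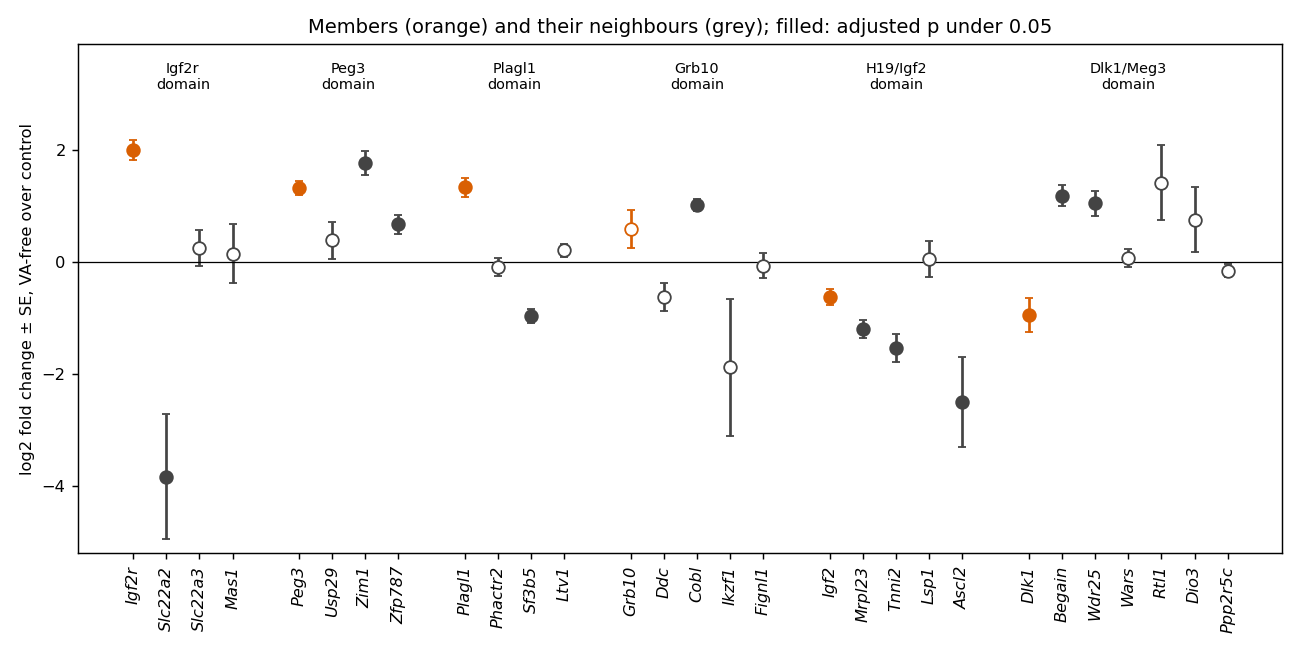
Log2 fold change of VA-free over control with its SE (y axis) for each measured member (orange) and each reported neighbor (grey) of its imprinted region, with filled points for an adjusted p under 0.05. Zim1, Zfp787, Begain, Wdr25 and Cobl are called higher and Mrpl23, Tnni2, Ascl2, Slc22a2 and Sf3b5 lower, while the widest bars belong to genes under 1 CPM.

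Of 54 other imprinted genes tested, 13 rose and 13 fell, beside 18.9% and 22.5% of all genes, with a median log2 fold change of 0.07. Some of these are neighbors already given above. Whether each is imprinted in MuSCs cannot be seen from reads not separated by allele. Calcr is also 1 of the 14 MuSC markers, 11 of which rose. The most abundant of those that rose were Calcr (1.27 ± 0.19, SE), the calcitonin receptor of quiescent MuSCs, Osbpl5 (1.23 ± 0.12), Trappc9 (0.93 ± 0.13), Ube3a (0.69 ± 0.11), a ubiquitin ligase, and Zdbf2 (0.57 ± 0.14). The most abundant of those that fell were Cd81 (-1.15 ± 0.19), a tetraspanin, Dcn (-4.46 ± 0.27), the proteoglycan decorin, Cdkn1c (-0.77 ± 0.23), a cyclin-dependent kinase inhibitor, Commd1 (-0.97 ± 0.13) and Gatm (-2.76 ± 0.13), an enzyme of creatine synthesis. Dcn fell from 1428 to 64.8 CPM, and it is also 1 of the 10 fibro-adipogenic markers, 7 of which fell. The summed level of those 10 markers was 11580 to 12650 CPM in VA-free and 3953 to 9633 CPM in control libraries, a direction set by Col3a1, at 11220 and 4304 CPM per mouse, and the part of other cells in the Dcn difference was not tested. Among the most abundant genes that did not pass, Gnas, H13 and Nap1l4 gave 0.04, 0.11 and -0.16. The calls of Cdkn1c and Zdbf2 were lost under 10 and 6 of 24 alternatives, and Calcr and Trappc9 lost theirs only without control library 2B (1.05 and 1.32). Commd1 lost its call with the length trend removed (-0.27, adjusted p = 0.225).

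Of 25 genes of the IGF axis tested, 6 rose and 6 fell (median log2 fold change -0.08), beside 18.9% and 22.5% of all genes, and these counts include Igf2r and Igf2. The receptor substrates Irs2 (1.48 ± 0.17, SE) and Irs1 (1.44 ± 0.31) rose, as did the binding protein Igfbp4 (1.36 ± 0.19) and the receptor Igf1r (0.50 ± 0.13). With the length trend removed Igf1r was at -0.11 (adjusted p = 0.576) and Irs1 lost its call at 0.83 (adjusted p = 0.0608). Igf1r lost its call under a further 6 of 24 alternatives, among them leaving out each VA-free mouse (0.48 to 0.52), control library 1A (0.43) and control library 2B (0.55). Among binding proteins Igfbp7 (-1.99 ± 0.27), Igfbp6 (-1.56 ± 0.11) and Igfbp3 (-1.01 ± 0.32) fell, whereas Igfbp5 (0.31 ± 0.19) did not pass. Stc1, a secreted glycoprotein that can inhibit the protease acting on IGF binding proteins, fell by 5.26 ± 0.41, from 29.4 to 0.765 CPM. Markers of other cell types were also lower in VA-free samples, among them 9 of 9 endothelial markers. The part of other cells in the falls of Igfbp7, Igfbp6, Igfbp3 and Stc1 was not tested. Htra1, a protease, gave -0.08 ± 0.13. The call of Igfbp3 was lost under 9 of 24 alternatives, and without control library 2B Irs2 (2.22) and Igfbp4 (1.82) were not called.

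Regulators of imprints are taken here as the enzymes and DNA-binding proteins that set, keep or remove methylation at control regions. Of 16 tested, 9 rose, genes that oxidize methylcytosine among them, and 2 fell. This stands beside 18.9% and 22.5% of all genes, and the median log2 fold change was 0.64. Among the more abundant, Trim28 (0.53 ± 0.14, SE), the corepressor that zinc finger proteins bring to imprints, Zfp445 (0.77 ± 0.12), 1 of those zinc finger proteins, Dnmt1 (0.90 ± 0.16), the maintenance methyltransferase, Smchd1 (0.75 ± 0.12) and Tet2 (0.79 ± 0.13), which oxidizes methylcytosine, rose. Ctcf (-0.33 ± 0.11), the insulator protein that binds the H19 and Igf2 control region, and Arid4a (-0.54 ± 0.15) fell, and Ctcf lost its call or its direction under 14 of 24 alternatives, with 0.09 once the length trend was removed. Arid4a and Trim28 lost theirs under 9 and 6. Dnmt3a (0.49 ± 0.17), Uhrf1 (0.38 ± 0.22) and Arid4b (-0.32 ± 0.14) did not pass. With the length trend removed the calls of Dnmt1 (0.34), Smchd1 (0.34), Zfp445 (0.32) and Tet2 (0.24) were lost as well.

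Likeness of pattern over the 8 libraries was taken for the 2 members with the highest mean TPM, as a description over the 9599 genes that averaged 10 CPM or more. Peg3 was most like Rbm12 (Pearson r of log2(CPM + 1) 0.998), Arfgef1 (0.997) and Cdk12 (0.997), genes of chromosomes 2, 1 and 11. Grb10 was most like Actn3 (0.979), Gabra3 (0.977) and Slc25a20 (0.967). The 8 points share 5 mice and 2 diets, so a high r follows for any genes with the same diet step. Grb10 itself did not pass the diet test, and its r values are the highest picked from the 9599 genes.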

How the data were processed

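RNA of sorted MuSCs was profiled in 8 libraries of 5 mice. Per the labels and the study's methods, the authors made full-length cDNA, sequenced short single-end reads and pseudo-aligned them with kallisto 0.46.2 to GRCm38 transcripts. Strand was not marked, so reads of an antisense RNA over exons of a member cannot be told apart from its own. The authors deposited estimated counts per transcript, not normalized, and TPM. Here, estimated counts were summed per gene (Ensembl 96), added over the technical libraries of a mouse and rounded, and the 0.647% to 0.756% without a gene were left out. The main test was edgeR 4.0.16 quasi-likelihood (R 4.3.3, TMM, filterByExpr, Benjamini-Hochberg over all 17997 genes), 3 VA-free against 2 control mice, and was tested on simulated data. There, 104 of 195 genes with a set change, among 17526 genes, were called, and 19 unchanged genes were called as well. The data had 41.4% of genes called and a length trend that the simulation lacked, so its error rates need not hold for them. Alternatives used DESeq2 1.42.0, limma 3.58.1 (voom, log2(TPM + 1) and log2(TPM + 0.1)), other normalizations and filters, and left out each mouse and library. P-values measure the spread between 5 mice, which limits precision more than counting error does. They do not show the spread between added libraries of a mouse. Its root mean square on the log2 scale was 0.871 for control mouse 2, 0.459 for control mouse 1 and 0.229 for VA-free mouse 3.

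Members and gene lists were chosen with earlier results of these data known. Named were all members, all tested neighbors but 1 that is not reported here, and of each list the 5 most abundant genes past the threshold in each direction and the 3 most abundant not past it, for regulators of imprints after values were seen, as was the choice of CACGTG. A RefSeq window matched 9 of 10 members. Of pericyte and smooth muscle markers 1 of 8 was higher and 4 lower, and of macrophage markers 3 of 8 were lower.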

Additional observations from a re-analysis of the deposited data

How the results depend on the processing

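Igf2r, Peg3 and Plagl1 stayed past the threshold in the same direction in 72 of 72 fits over 24 alternatives (log2 fold changes from 1.39 to 2.57, 0.71 to 1.78 and 0.94 to 2.02). The number of members past the threshold fell from 5 to 3 with 1 library per mouse, with the length trend removed and with TPM at either pseudocount, and leaving out a mouse or library in turn gave 3 to 5, with 3 only without control library 2B. The number of genes past the threshold was 7459 and ranged from 4476 (without control library 2B) to 7744 when a mouse or library was left out, and neither count moved by more than 1.5 times under the other settings. TPM moved the median of all genes to 0.192 and 0.354, so its fold changes are relative to that shift. The cause of these losses was not tested.

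Igf2 reversed to 0.17 with 1 library per mouse and to 0.05 with the length trend removed. With the length trend removed Igf1r became -0.11, Igfbp5 -0.30, Ctcf 0.09, Uhrf1 -0.05, Wars -0.18 and Slc22a3 -0.19. With TPM at pseudocounts of 1 and 0.1 Nap1l4 became 0.32 and 0.32, Htra1 0.34 and 0.34, Arid4b 0.11 and 0.11, Ppp2r5c 0.26 and 0.27, Phactr2 0.27 and 0.28, and Fignl1 0.07 and 0.08. With 1 library per mouse Htra1 became 0.05 and Lsp1 -0.31, and with a transcript length offset Mas1 became -0.07. Leaving out a mouse or library in turn changed the sign of 8 genes that had not passed the test, with log2 fold changes of Gnas -0.01 to 0.09, Lsp1 -0.40 to 0.72, Wars -0.15 to 0.34, Ppp2r5c -0.34 to 6.4e-05, Slc22a3 -0.09 to 0.56, Mas1 -0.27 to 0.42, Phactr2 -0.36 to 0.16 and Fignl1 -0.36 to 0.19. Over 56 named genes that are no members, 1157 fits kept direction and side of the threshold, 110 lost the call, 30 gained one and 38 changed sign.

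Across diets, deviations of mice with equal replicate numbers in the labels correlated at -0.022 and 0.00583. With 2 control mice, the deviations of one mirror those of the other, so these values cannot decide whether the numbers pair mice. A replicate block left 4 members and 5242 genes past the threshold, with Igf2 at -0.55 (adjusted p = 0.0747), and Fignl1 became 0.0015. With 2 control mice, spread within that diet rests on 1 difference, and leaving out either leaves a lone control assumed to vary like the other mice.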
